A study of Mus musculus with 14 samples.

Results

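Genes of potassium channels were followed in RNA from the mouse hippocampus. They were taken as every gene symbol of the count table that starts with Kcn followed by letters and a number. The rule took 93 of 22485 gene symbols. Of these 93 genes, 67 had enough counts to be tested among 13063 tested genes, and the 59 with a mean of at least 5 CPM (counts scaled to the size of the library) over all libraries are described with their levels.

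Potassium channels let potassium leave the cell and so set the resting potential, repolarise action potentials and limit firing. Voltage-gated (Kv) channels are built from pore-forming subunits of the families Kcna, Kcnb, Kcnc, Kcnd, Kcnq and Kcnh, joined by silent subunits (Kcnf, Kcng, Kcns, Kcnv) that form no channel of their own. Other families open with calcium (Kcnma, Kcnn) or sodium (Kcnt), pass current inward better than outward (Kcnj), or leak at rest (Kcnk). Cytosolic beta subunits (Kcnab), Kv channel-interacting proteins (KChIPs, Kcnip) and Kcne proteins bind the pore subunits. In the hippocampus, pyramidal cells of CA1 and CA3 and granule cells of the dentate gyrus (DG) are known to carry different sets of these channels.

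The 14 libraries came from C57BL/6 mice, from CA1, CA3 and DG, and the authors' sample table names 1 mouse for all of them. Control tissue (3 libraries of CA1, 2 of CA3, 2 of DG) went straight into RNA isolation. Dissociated tissue (again 3, 2 and 2) was first held for 75 min in artificial cerebrospinal fluid with the protease mixture pronase at 1 mg/ml, then vortexed, spun and triturated in fluid with 1% FBS. Total estimated counts ran from 1285654 to 6646655 in control and from 65887 to 4782767 in dissociated libraries, 3 of which held under 500000 (CA1 replicates 2 and 3, DG replicate 3). No label says that the libraries come from separate animals, so p-values measure only the spread between tissue samples, which may be technical. In bulk tissue, fewer cells of a type and less RNA per cell cannot be told apart.

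Markers of the regions went against the label in 3 libraries. Summed CPM of 6 CA1 pyramidal cell markers was 1596 to 2811 in 5 libraries labelled CA1, but 151 in the library labelled CA1 dissociated replicate 3, where 6 CA3 markers summed to 2093. The libraries labelled CA3 control replicate 1 and CA3 dissociated replicate 1 held CA1 markers at 2119 and 1657 CPM and CA3 markers at 399 and 325 CPM. The library labelled CA3 control replicate 4 held both, at 803 and 955 CPM. In the DG, 8 granule cell markers summed to 706 CPM in control replicate 2 and 2404 CPM in control replicate 3, while 10 interneuron markers summed to 1273 and 369 CPM. CA3 markers were no lower in 3 DG libraries (1273 to 1738 CPM) than in the library labelled CA3 control replicate 4. For the named genes whose call changes without the 3 libraries, the value without them is also given.

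**Figure D1:**
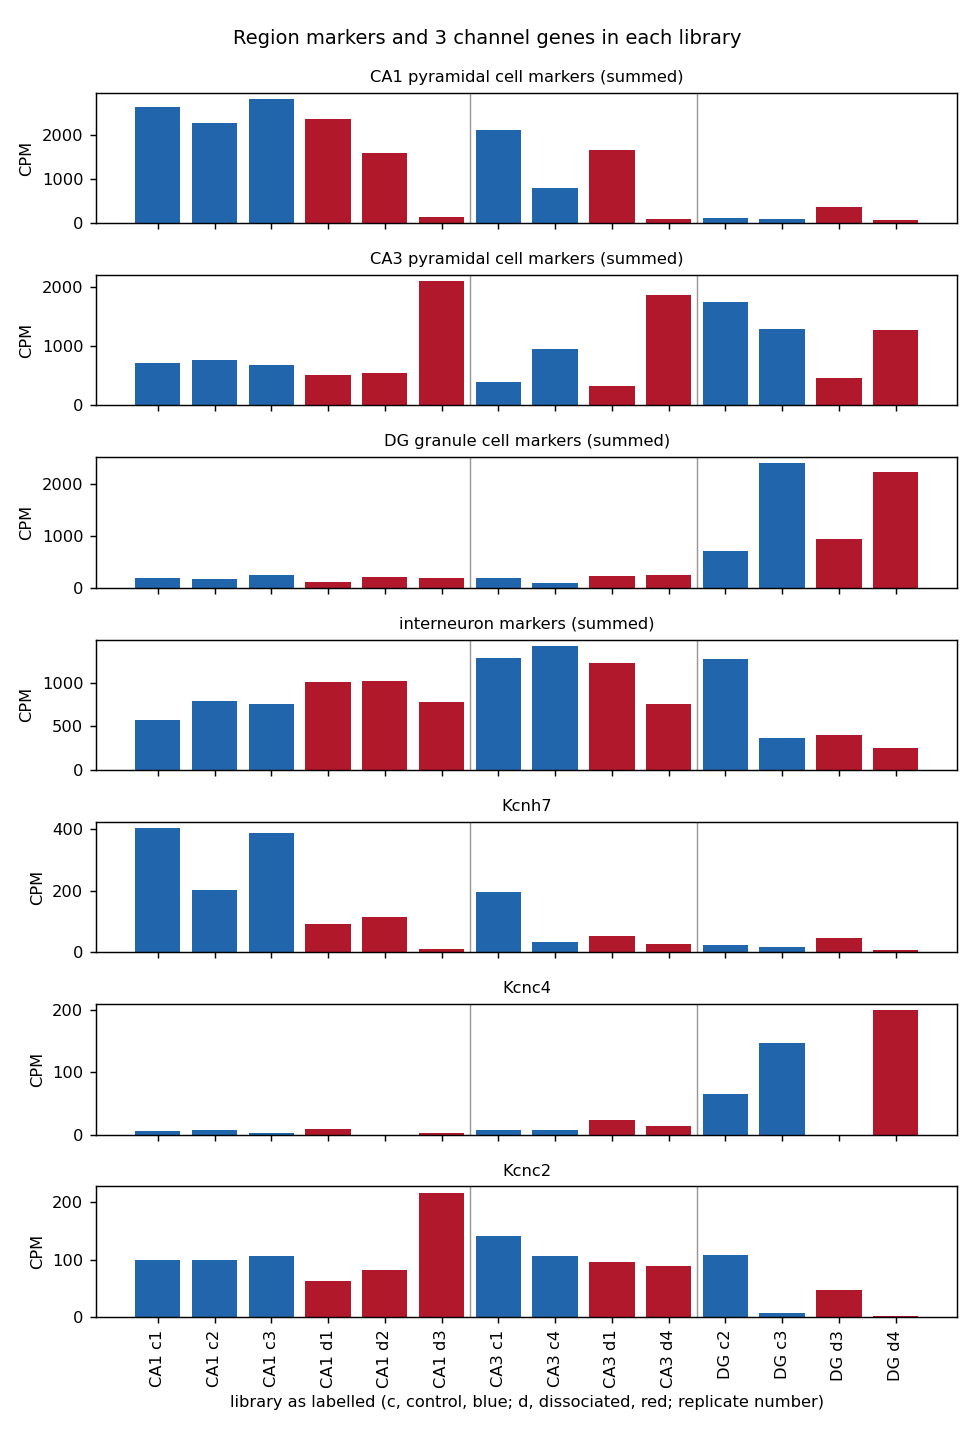
Bars give CPM in each of the 14 libraries, in the order of their labels: summed CPM of region and interneuron markers above, and CPM of Kcnh7, Kcnc4 and Kcnc2 below. Kcnh7 was at 195 CPM in the library labelled CA3 control replicate 1, which held CA1 markers at 2119 CPM, and Kcnc2 was at 107 and 7.03 CPM in DG control replicates 2 and 3.

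Of the 26 members that were not tested, 7 had no count in any library: Kcna7 and Kcna10, Kcne1 and Kcne3, Kcnk16 and Kcnk18, and Kcnv2. The other 19 had 1 to 87 counts over all 14 libraries. They include Kcnj8 (24 counts), known from pericytes and smooth muscle, Kcnj13 (7 counts), known from choroid plexus, and Kcnn4 (4 counts), known from microglia. A further 8 members were tested but stayed under 5 CPM on average, among them Kcne4, Kcng3, Kcnh4, Kcnj12, Kcnj14, Kcnk10 and Kcnn3.

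Levels of different genes were compared in TPM, abundance scaled by transcript length and library, as mean ± SD of the 7 control libraries. Beta subunits led: the family of 3 Kcnab genes summed to 872 ± 347 TPM, 24.8 ± 6.37% of the TPM of all members. Inward rectifiers (414 ± 123 TPM) and KChIPs (405 ± 124 TPM) came next and lay within 1 SD of each other. Single-span Kcne proteins were lowest, at 5.59 ± 3.24 TPM. The median described member was at 31.4 TPM, 5 members reached 100 TPM or more, 21 reached 50 TPM, and 11 were under 10 TPM.

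**Figure D2:**
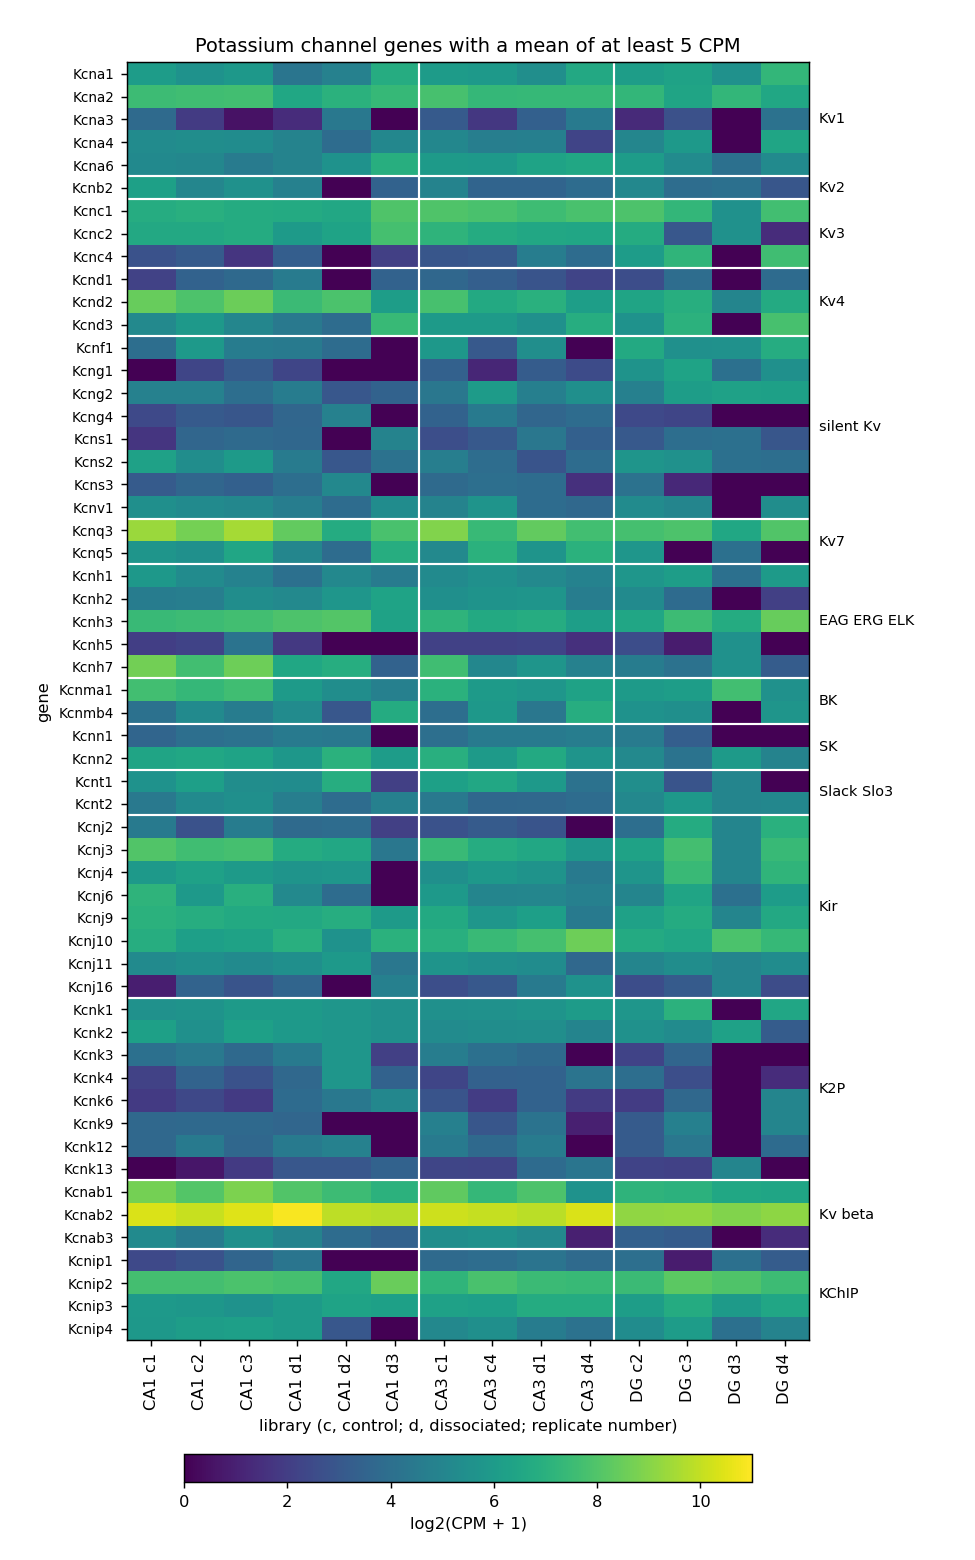
Each row is 1 of 56 described genes, grouped by family, and each column 1 library; colour gives log2(CPM + 1). Kcnab2 is bright in every column, and the shallow libraries (CA1 d2, CA1 d3, DG d3) hold many dark cells, 18 genes at 0 in DG d3.

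Kcnab2, a beta subunit of Kv1 channels, was the most abundant member at 655 ± 235 TPM. Its TPM was divided over 7 transcripts, of which Kcnab2-001 held 47.4 ± 14.7% and Kcnab2-004 held 42.6 ± 13.6%. Kcnab1, which gives Kv1 channels fast inactivation, was at 189 ± 103 TPM, and Kcnab3 at 27.4 ± 15.4 TPM. Kcnip2, a calcium-binding partner of Kv4 channels, was at 282 ± 111 TPM, above Kcnip3 (57.8 ± 15.4 TPM), Kcnip4 (53.6 ± 16.8 TPM) and Kcnip1 (11.4 ± 6.96 TPM). Most Kcnip2 TPM (68.1 ± 13.4%) fell on the transcript Kcnip2-003.

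Among pore subunits, Kcnq3, part of the M current that restrains repetitive firing, was at 80.2 ± 46.3 TPM and Kcnq5 at 21.6 ± 13.4 TPM. Kv3 subunits, which open fast and allow high firing rates, included Kcnc1 (74.0 ± 27.1 TPM) and Kcnc2 (33.6 ± 15.4 TPM). Kcnc4 was uneven over the 7 controls, from 1.44 to 85.1 TPM with a median of 4.47 TPM. Kcnd2, the main subunit of the dendritic A-type current in pyramidal cells, was at 91.9 ± 54.3 TPM, against 20.9 ± 10.1 TPM for Kcnd3 and 3.89 ± 1.68 TPM for Kcnd1. Kcnb2, which carries delayed rectifier current, was at 7.32 ± 4.71 TPM.

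The Kv1 subunits, which sit on axons, were moderate: Kcna1 at 35.6 ± 5.41 TPM and Kcna2 at 34.0 ± 11.9 TPM did not differ beyond their spread. Kcna4 (17.7 ± 5.24 TPM) and Kcna6 (17.5 ± 5.48 TPM) followed, with Kcna3 at 5.96 ± 5.62 TPM. In the Kcnh group, Kcnh3, an ELK channel of the forebrain, was at 97.3 ± 31.5 TPM and the ERG channel gene Kcnh7 at 33.1 ± 30.8 TPM. Silent subunits ran from 4.98 ± 3.33 TPM for Kcng4 to 68.4 ± 50.8 TPM for Kcng2, with Kcns2 at 23.1 ± 11.3 TPM. Of the Kcng2 TPM, 35.0 ± 35.9% (0 to 80.1%) fell on Kcng2-002, a transcript of 279 bases. In CPM, which are not scaled by length, Kcng2 had a control mean of 35.5 and Kcns2 one of 45.6. More than 1 transcript was listed for 36 of the 59 genes, up to 16 for Kcnma1. Its leading transcript held 36.8 ± 11.4% of the TPM of that gene.

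Among calcium-activated channels, Kcnma1, the pore of the BK channel, was at 66.9 ± 31.5 TPM and its neuronal partner Kcnmb4 at 72.7 ± 25.0 TPM. Kcnn2, an SK channel of the afterhyperpolarisation, was at 57.9 ± 33.2 TPM and Kcnn1 at 16.0 ± 9.16 TPM. The sodium-activated Kcnt1 was at 32.7 ± 18.8 TPM. Inward rectifiers were led by the G protein-gated Kcnj3 (92.9 ± 37.2 TPM) and by Kcnj4 (80.4 ± 46.0 TPM), with Kcnj6 at 74.4 ± 41.1 TPM and Kcnj9 at 58.6 ± 17.8 TPM. Kcnj10, which takes up potassium into astrocytes and other glia, was at 30.1 to 63.6 TPM (median 39.0 TPM) and its partner Kcnj16 at 5.51 ± 2.38 TPM. Kcnk1 (69.0 ± 29.1 TPM) and Kcnk2 (47.3 ± 16.2 TPM) were the highest leak channel genes, and Kcnk13 was the lowest of the 59 at 2.45 ± 1.79 TPM.

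The study asks what dissociation does to the RNA of each region. Between dissociated and control libraries, with region in the model, 1 of the 67 tested members was called at an adjusted p under 0.05. This was Kcns2, a silent subunit that joins Kv2 channels, and it fell. The share of all 13063 tested genes called lower was 0.0459%, and 0.727% were called higher. Log2 fold changes were negative for 48 of the 67 members, with a median of -0.29, and for 58.1% of all genes, with a median of -0.11. With RLE scaling in place of TMM, 40 of the 67 were negative (median -0.19) against 51% of all genes (median -0.01). At an unadjusted p under 0.05, 13 members were lower and 4 higher, against 6.31% and 6.13% of all genes.

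**Figure D3:**
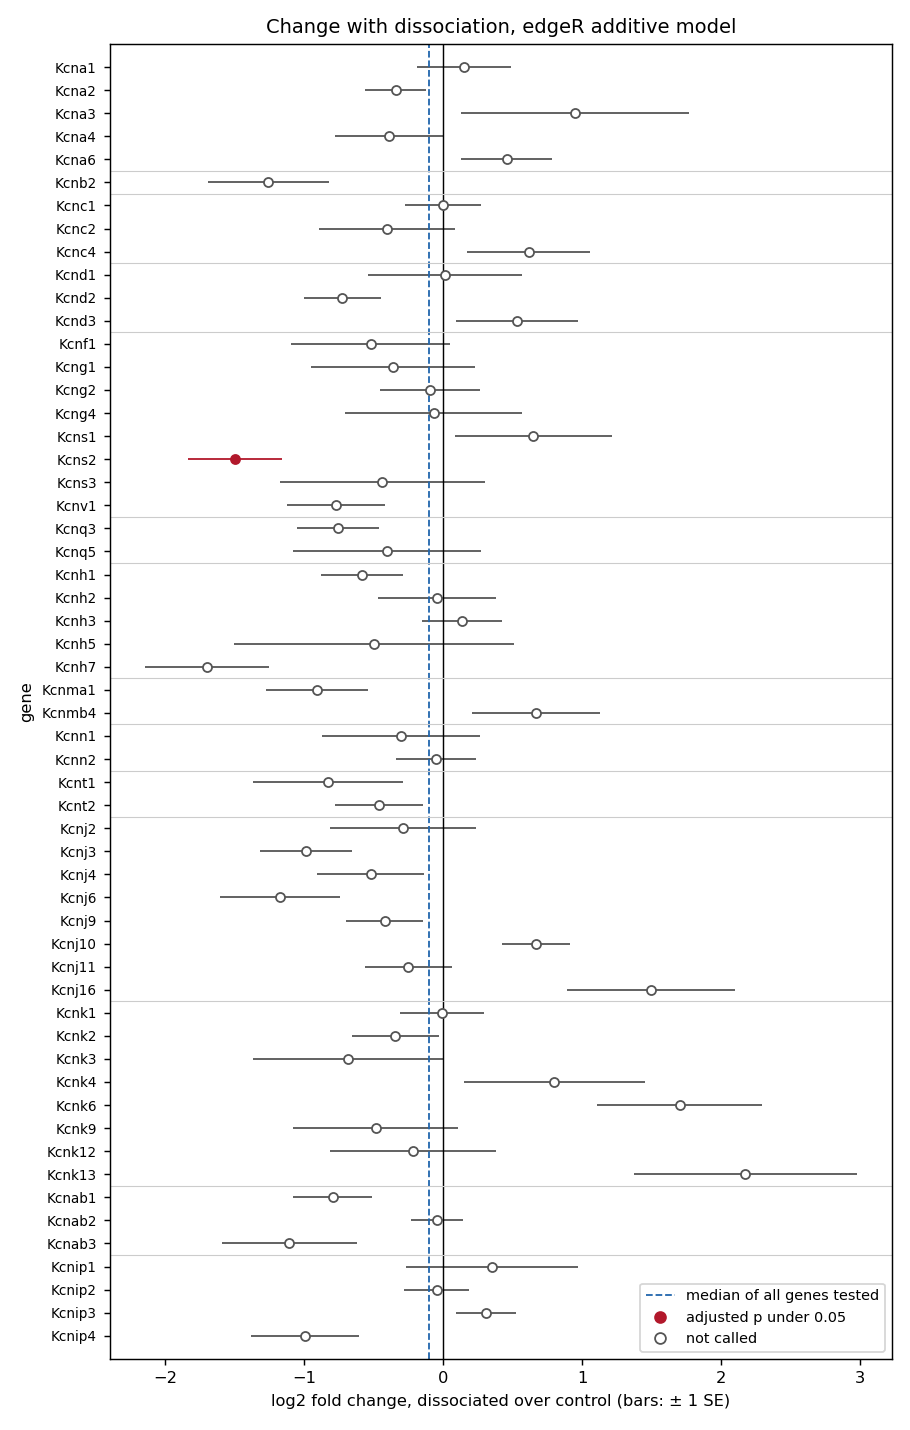
Points give the log2 fold change (dissociated over control, edgeR) of 56 described genes by family, bars ± 1 SE, and the dashed line the median of all tested genes at -0.11. Kcns2, in red at -1.50, is the single called gene.

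Kcns2 lies on chr15:34837355-34843407 (+ strand, GRCm38). In CA1 it was at 76.7, 41.6 and 63.4 CPM in controls and at 22.8, 6.82 and 16.5 CPM after dissociation. In libraries labelled CA3 it was at 25.2 and 14.1 CPM in controls against 6.16 and 13.9 CPM. In DG it was at 52.6 and 45.8 CPM in controls against 15.6 and 14.8 CPM. The treatments did not overlap within any of the 3 regions, though the gap in CA3 was small, and this held for 1.34% of all tested genes in the lower direction. No other member had such a gap in either direction. The 15.6 CPM in DG and the 6.82 CPM in CA1 are 1 count each. In that DG library even a count of 0 allows up to 46.7 CPM, above the lower DG control, so the gap in DG is within counting error. The log2 fold change was -1.50 ± 0.34 (SE, adjusted p = 0.0312, edgeR's quasi-likelihood test).

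This call rests on few counts and many libraries. It was kept in 6 of 14 fits that each left out 1 library (log2 fold change -1.72 to -1.40, adjusted p 0.0304 to 0.11) and lost when any control of CA1, the first of CA3 or the third of DG was dropped, or dissociated replicate 1 or 2 of CA1 or replicate 1 of CA3. Without the 3 libraries whose markers go against the label it was -1.31 (adjusted p = 0.194), and without the shallow libraries -1.32 (adjusted p = 0.141). DESeq2 called it too (-1.41), along with 3 members that were higher: Kcnj10 (0.77), Kcnk6 (1.82) and Kcnk13 (2.29). DESeq2 called 3.66% of all genes, 3.15% higher and 0.513% lower, and the fit without the 3 libraries called 0.0145% lower.

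Kcnh7, an ERG channel subunit, had the next smallest p and was not called (-1.70 ± 0.44, adjusted p = 0.078). It was called without CA3 control replicate 4 (adjusted p = 0.0363) and with no filter on low counts (-1.69, adjusted p = 3.24e-06), and was -1.11 (adjusted p = 0.248) without the 3 libraries whose markers go against the label. Its CPM in CA1 was 403, 202 and 385 in controls and 91.8, 116 and 9.87 after dissociation, so the treatments did not overlap there. In libraries labelled CA3 it was 195 and 32.8 against 52.9 and 27.8 CPM, and in DG 23.4 and 16.8 against 46.7 and 8.24 CPM, with overlap in both. The value of 46.7 CPM is 3 counts in the shallowest library, and 9.87 CPM is 3 counts in the library labelled CA1 dissociated replicate 3.

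Kcnj3, the G protein-gated rectifier, was at 254, 198 and 215 CPM in CA1 controls and 108, 95.5 and 19.7 CPM in CA1 dissociated libraries. In DG it was at 80.4 and 210 against 31.1 and 172 CPM, which overlap, and the log2 fold change over all regions was -0.99 ± 0.33 (adjusted p = 0.205). Kcnj3 was called without DG dissociated replicate 4 (adjusted p = 0.0324) and with no filter (adjusted p = 0.0158), and was -0.75 (adjusted p = 0.388) without the 3 libraries. Kcnb2, a Kv2 pore gene, was at 75.8, 31.7 and 46.4 CPM in CA1 controls against 27.8, 0 and 9.87 CPM, and its log2 fold change was -1.26 ± 0.44 (adjusted p = 0.224). Kcnab1 gave -0.79 ± 0.28 (adjusted p = 0.243), and -0.88 (adjusted p = 0.168) without the 3 libraries.

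Some members with higher values after dissociation are known from glia. Kcnj10 was at 114, 73.2 and 80.8 CPM in CA1 controls against 122, 47.7 and 128 CPM, at 120 and 176 against 216 and 375 CPM in CA3, and at 104.5 and 89.1 against 233.5 and 165 CPM in DG. It overlapped in CA1 and did not in the other regions, and was not called by edgeR (0.67 ± 0.24, adjusted p = 0.252). Kcnk6, a leak channel, was at 2.68, 4.28 and 2.68 CPM in CA1 controls against 13.4, 20.5 and 32.9 CPM, but overlapped in CA3 and DG (1.70 ± 0.59, adjusted p = 0.23). Kcnk13, known from microglia, was at 0 to 3.87 CPM in the 7 controls and at 0 to 31.1 CPM in the 7 dissociated libraries. The 31.1 CPM is 2 counts in the shallowest library.

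Markers of glia moved in these libraries. Of 12 oligodendrocyte markers 9 were called higher after dissociation (summed 663 to 4037 CPM in controls, 1558 to 13386 CPM in dissociated libraries), and so were 7 of 12 microglia markers (295 to 512 against 603 to 2339 CPM). Of 10 astrocyte markers none was called (2213 to 3665 against 2064 to 7264 CPM), though all 10 were positive. Of 6 oligodendrocyte precursor markers 3 were called higher, and of 8 endothelial markers none. Of all genes, 41.9% were positive, and 0.727% were called higher and 0.0459% lower. The 7 excitatory neuron markers (4911 to 6653 against 2662 to 9917 CPM) held no called gene, with 1 positive and a median of -0.33. The 10 interneuron markers (369 to 1425 against 257 to 1229 CPM) held none either, with 2 positive and a median of -0.37. The part of these cells in the values of the channel genes was not tested. Counts in channel genes were 0.476 to 0.771% of the total in controls and 0.290 to 0.564% in dissociated libraries.

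**Figure D4:**
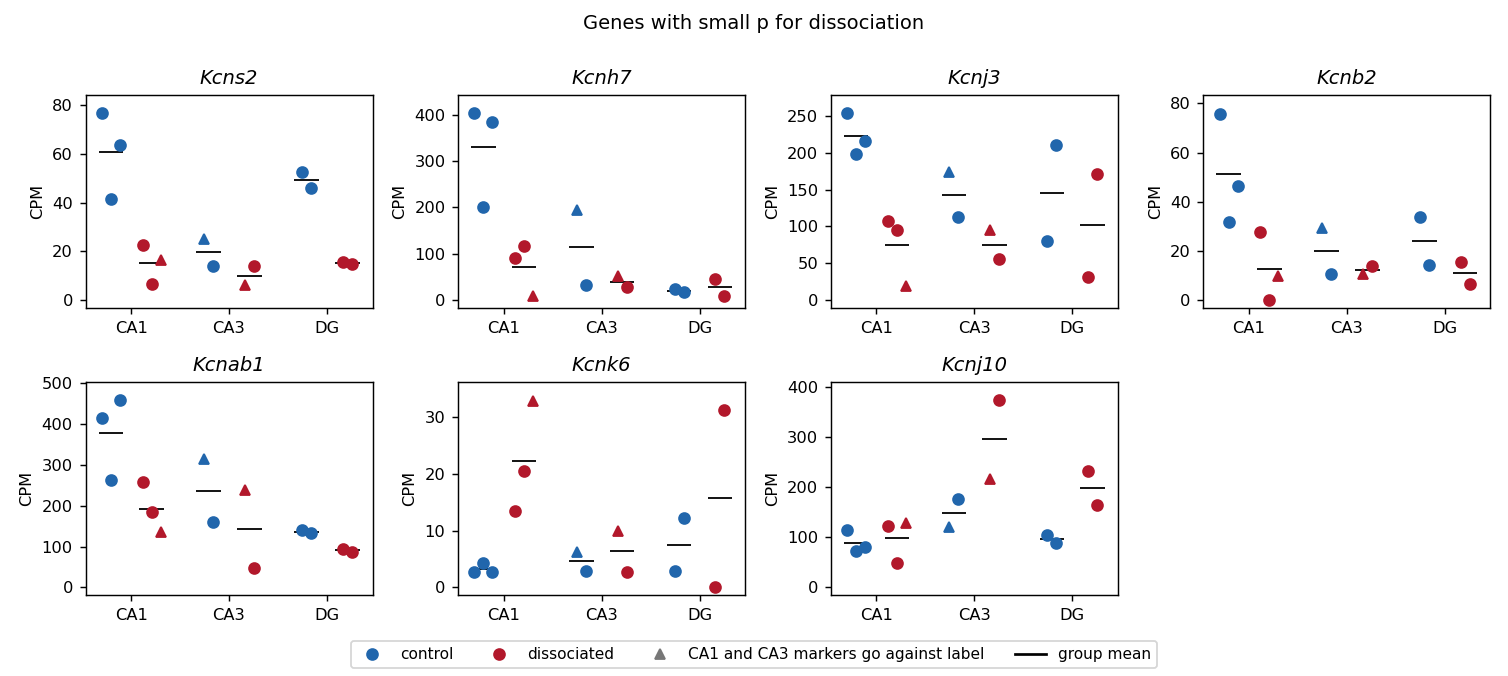
Points give CPM per library of 7 genes with small p for dissociation, by region, control in blue and dissociated in red, with group means as lines; triangles mark the 3 libraries whose markers go against the label. Kcns2 does not overlap within any region, while the other 6 overlap in at least 1.

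By family, all 4 tested Kv7 genes, all 3 beta subunit genes and 8 of 9 silent subunits were negative with TMM scaling, and of these 16 only Kcns2 was called. With RLE scaling 4, 2 and 7 were negative, and without the 3 libraries whose markers go against the label 3, 2 and 7. Kv1 genes were divided (3 positive, 2 negative), as were KChIPs (2 and 2, or 3 and 1 with RLE). Kcnab2 (-0.05 ± 0.19, 0.06 with RLE) and Kcnip2 (-0.05 ± 0.23, 0.07 with RLE), the most abundant members, had medians of 686 and 257 TPM in controls and 481 and 187 TPM after dissociation. TPM and CPM are scaled to different totals. On log2(TPM + 1), 84.4% of all tested genes were negative for dissociation (median -0.64), as were 61 of the 67 members (median -0.79). There limma called no member and 0.421% of all genes.

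Within single regions no member was called in CA1, CA3 or DG, against 0.191%, 0% and 0.161% of all genes (in DG 0.0383% higher and 0.122% lower), and none for the interaction of treatment with region (0% of all genes). At an unadjusted p under 0.05 there were 15, 4 and 5 members of 67, against 11.2%, 4% and 14.1% of all genes, and 3 for the interaction, against 8.51%. In CA1, 12 of the 15 were lower and 3 higher, against 5.17% and 6.03% of all genes. DESeq2 called 2 members there, Kcnj6 (-2.39) and Kcnma1 (-1.92), and 1.58% of all genes, 1.36% higher and 0.214% lower. Kcnma1, the BK pore, was at 202, 160 and 199 CPM in CA1 controls and 63.1, 40.9 and 26.3 CPM in CA1 dissociated libraries. It was at 63.6 and 68.5 against 202 and 46.2 CPM in DG, where the treatments overlap. The 202 CPM is 13 counts in the shallowest library, where 6 pericyte and smooth muscle markers summed to 2506 CPM against 48.1 to 240 CPM in the other 13 libraries. The part of these cells in that value was not tested. No difference between regions in the response to dissociation was thus shown for any member.

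Between regions, with treatment in the model, more members were called. Against DG, CA1 held 9 called members of 67 (13.4%), 5 higher and 4 lower, where 4.06% of all genes were called, 1.98% higher and 2.07% lower. CA3 against DG held 5 (7.46%), 2 higher and 3 lower, where 1.78% of all genes were called, 0.888% in each direction. These comparisons share the DG libraries. CA1 against CA3 held none at that threshold and 12 at an unadjusted p under 0.05. Of all genes 5.37% passed the latter and 0.115% were called, 0.00766% higher and 0.107% lower. DESeq2 called 2 members there, Kcns2 (1.37) and Kcnj10 (-1.06), and 0.482% of all genes, 0.107% higher and 0.375% lower. Between CA1 and DG it called 11 members (7.64% of all genes, 3.63% higher and 4.01% lower), and between CA3 and DG 8 (3.82% of all genes, 1.81% higher and 2.01% lower).

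Kcnc4, the inactivating Kv3 subunit, was the member with the smallest p between CA1 and DG. It was at 65.8 and 146 CPM in DG controls and at 0 and 199.5 CPM in DG dissociated libraries; the 0 allows up to 46.7 CPM. Libraries labelled CA1 held 5.80, 7.97 and 2.23 CPM in controls and 8.65, 0 and 3.29 CPM after dissociation. Libraries labelled CA3 held 6.77 and 7.48 CPM, and 24.2 and 13.9 CPM. Apart from the shallowest library, every DG library was above all others. The log2 fold change was -4.21 ± 0.53 for CA1 against DG (adjusted p = 7.91e-05) and -3.25 ± 0.57 for CA3 against DG (adjusted p = 0.00361). Both calls held in all 14 fits that left out 1 library, but limma on log2(TPM + 1) made neither. The gene lies on chr3:107438303-107459552 (- strand).

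Kcng1, a silent subunit, followed the same regions. DG held 49.7 and 82.5 CPM in controls and 15.6 and 44.5 CPM after dissociation, whereas libraries labelled CA1 held 0, 3.98, 8.04, 3.87, 0 and 0 CPM and those labelled CA3 9.68, 1.25, 8.21 and 4.63 CPM. All 4 DG libraries were above all other libraries, the lowest by a single count in the shallowest library. The log2 fold change was -3.88 ± 0.69 (adjusted p = 0.00161) for CA1, called in all 14 fits without 1 library, and -3.08 ± 0.74 (adjusted p = 0.0325) for CA3, called in 6 of the 14 (adjusted p 0.0185 to 0.24). The CA3 call was lost without any library labelled CA3, without control replicate 2 or dissociated replicate 1 of CA1, and without control replicate 3 or dissociated replicate 4 of DG. Without the 3 libraries whose markers go against the label, the CA3 value was -4.28 (adjusted p = 0.0579).

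Kcnj2, a strong inward rectifier, was at 14.6 and 107 CPM in DG controls and 31.1 and 127 CPM in DG dissociated libraries. In CA1 it was at 21.8, 5.90 and 23.7 CPM and 12.8, 13.6 and 3.29 CPM, so DG control replicate 2 lies among the CA1 values. Libraries labelled CA3 held 0 to 7.90 CPM, under all DG libraries. It was called lower in CA1 (-2.45 ± 0.60, adjusted p = 0.0208) and in CA3 (-3.85 ± 0.71, adjusted p = 0.00572). The CA1 call was lost without control replicate 2 or dissociated replicate 1 of CA1, and without control replicate 3 or dissociated replicate 4 of DG (log2 fold change -2.83 to -1.77, adjusted p up to 0.213). The CA3 call was lost without DG control replicate 3 (adjusted p = 0.0636), and was -4.00 (adjusted p = 0.0521) without the 3 libraries whose markers go against the label. Kcng2, a silent subunit, was lower in CA1 by -1.52 ± 0.43 (adjusted p = 0.0468). This call held in 1 of the 14 fits, the one without DG control replicate 2 (adjusted p 0.0163 to 0.254). Kcng2 was at 27.2, 27.3 and 14.7 CPM in CA1 controls and at 26.3 and 69.5 CPM in DG controls, which overlap. After dissociation it was at 6.82 to 23.2 CPM in CA1 and at 77.8 and 74.2 CPM in DG. The 77.8 CPM is 5 counts in the shallowest library. The call was not made with controls only or without the shallow libraries.

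Kcnh7 was the member most above DG in CA1, at 3.59 ± 0.65 (adjusted p = 0.00183), a call kept in all 14 fits without 1 library. The call was not made by limma on log2(TPM + 1). The lowest CA1 library was the library labelled CA1 dissociated replicate 3, at 9.87 CPM, which held CA3 markers. The highest DG value was the 3 counts of the shallowest library (46.7 CPM), and the DG controls, at 23.4 and 16.8 CPM, were also above that CA1 library. Without the 3 libraries whose markers go against the label it was 3.85 ± 0.44 (adjusted p = 1.36e-05).

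Kcnd2, the Kv4 pore gene, was at 347, 243 and 370 CPM in CA1 controls against 84.8 and 117 CPM in DG controls, and at 182, 232 and 69.1 CPM against 31.1 and 105.5 CPM after dissociation. Kcnab1 was at 415, 264 and 460 CPM in CA1 controls against 140 and 133 CPM in DG controls. After dissociation it was at 257, 184 and 135 CPM against 93.4 and 87.4 CPM. Log2 fold changes over DG were 1.34 ± 0.36 (adjusted p = 0.0336) for Kcnd2 and 1.33 ± 0.37 (adjusted p = 0.0404) for Kcnab1, each called in 6 of the 14 fits without 1 library. Both calls were lost without any CA1 control library, without DG control replicate 3, without CA1 dissociated replicate 1 or 2, and without DG dissociated replicate 3, that of Kcnd2 also without DG control replicate 2 and that of Kcnab1 without DG dissociated replicate 4. Adjusted p ran from 0.00546 to 0.125 and from 0.00854 to 0.161.

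Kcnab2 was higher than in DG in both CA1 (1.19 ± 0.24, adjusted p = 0.00393) and CA3 (1.02 ± 0.25, adjusted p = 0.0383). DG libraries held 574, 589, 483 and 557 CPM, and the other 10 libraries 889 to 1875 CPM, without overlap. The CA1 call held in all 14 fits without 1 library and the CA3 call in 4 (adjusted p 0.017 to 0.157), lost without any CA1 or CA3 control, any CA3 or DG dissociated library or DG control replicate 3. Without the 3 libraries whose markers go against the label the CA3 value was 1.13 (adjusted p = 0.0926). Kcnn2, the SK channel, was higher in CA1 (1.51 ± 0.39, adjusted p = 0.0263) and CA3 (1.56 ± 0.40, adjusted p = 0.0457). It was at 35.1, 17.2, 62.3 and 29.7 CPM in DG and at 50.1 to 130 CPM elsewhere, overlapping through the shallowest library. Its CA1 call was lost without any CA1 control or DG control replicate 3 (adjusted p up to 0.199), and its CA3 call also without any CA3 control, CA3 dissociated replicate 1 or DG dissociated replicate 4 (up to 0.316). Without the 3 libraries its CA3 value was 1.01 (adjusted p = 0.386).

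**Figure D5:**
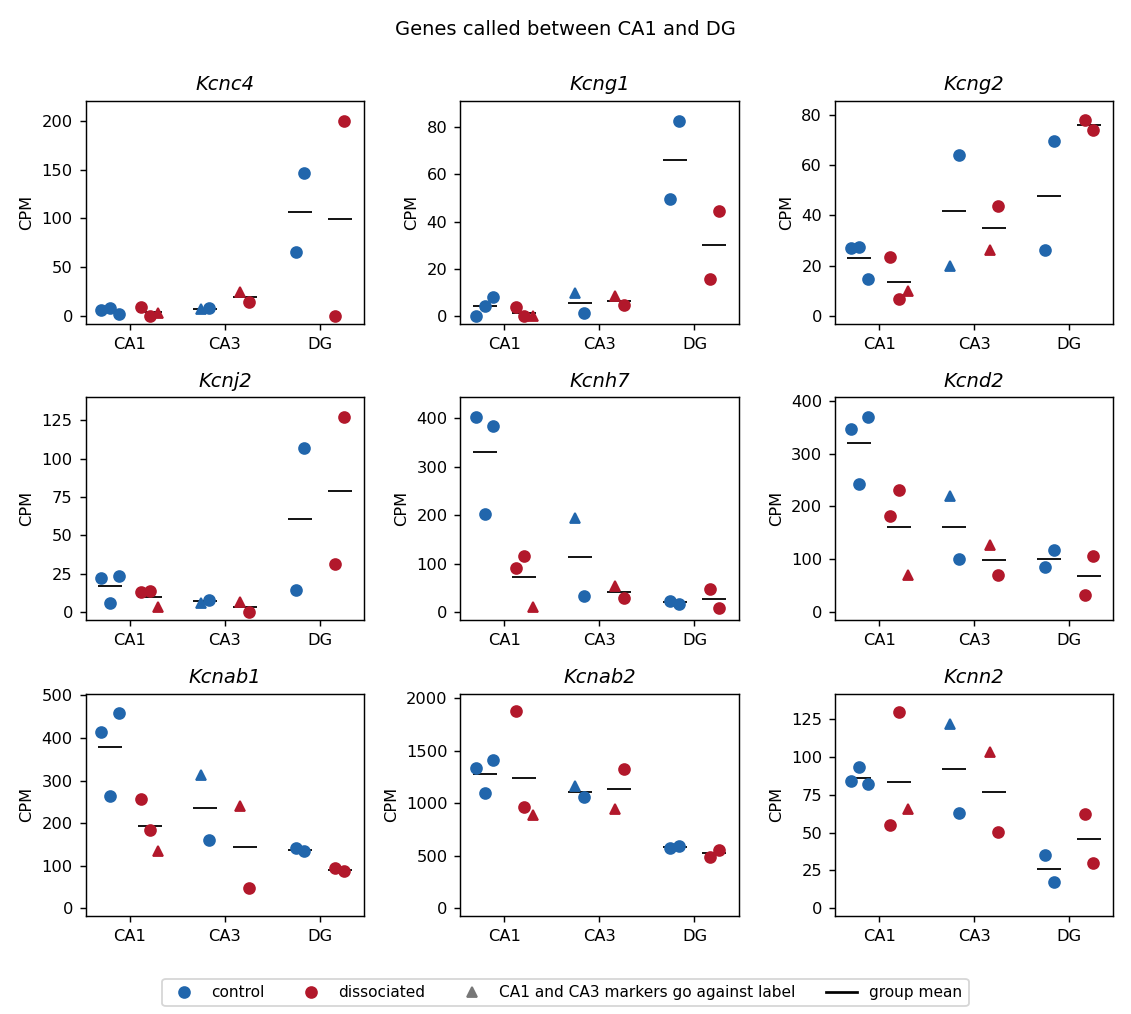
Points give CPM per library of the 9 genes called between CA1 and DG, control in blue and dissociated in red, group means as lines, triangles for the 3 libraries whose markers go against the label. Kcnc4 reaches at most 24.2 CPM outside DG, and Kcnab2 lies at 483 to 589 CPM in DG and at 889 to 1875 CPM elsewhere.

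Leaving out the 3 libraries whose markers go against the label changed which members were called. CA1 against DG then held 10 (4.51% of all genes were called, 2.59% higher and 1.92% lower): Kcng2 was lost (adjusted p = 0.0721), and Kcnab3 (2.62, adjusted p = 0.0246) was among those added. CA3 against DG held 2 (0.594% of all genes, 0.29% higher and 0.304% lower), Kcnc4 (-3.48) and the silent subunit Kcnf1 (-4.24, adjusted p = 0.0164). CA1 against CA3 held 3 higher (0.811% of all genes, 0.326% higher and 0.485% lower): Kcnh7 (2.76 ± 0.50, adjusted p = 0.00878), Kcnab1 (1.71 ± 0.36, adjusted p = 0.0239) and Kcnd2 (1.68 ± 0.37, adjusted p = 0.0292). In that fit CA3 rests on control replicate 4, which held CA1 and CA3 markers together, and dissociated replicate 4.

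Several members differed between the 2 DG control libraries as the interneuron markers did. Kcnc2, the Kv3 subunit of fast-spiking interneurons, was at 107 CPM in replicate 2 and 7.03 CPM in replicate 3. In the dissociated DG libraries it was at 46.7 and 1.65 CPM, which are 3 counts and 1 count. Elsewhere it was at 62.2 to 217 CPM. Kcnt1 was at 41.7 and 6.23 CPM and Kcnq5 at 54.1 and 0 CPM in the same controls. Other members went the opposite way there, among them Kcnc4 (65.8 and 146 CPM) and Kcnj2 (14.6 and 107 CPM). Without DG control replicate 2, 12 members were called between CA1 and DG (5.52% of all genes) and 10 between CA3 and DG (4.26%). Without DG control replicate 3 there were 4 and 1, against 1.48% and 0.401% of all genes. Kcnc2 (4.04), Kcnt1 (3.41) and Kcnh2 (2.12) were among those added between CA1 and DG without replicate 2. Each was higher in replicate 2 than in replicate 3, Kcnh2 at 37.3 and 13.6 CPM. Leaving out the higher library raises such fold changes by itself, so these added calls do not show a difference between regions. The part of interneurons in these values was not tested.

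Upstream sequence is shown for 3 members that were called between CA1 and DG, Kcnj2 as higher in DG and Kcnh7 and Kcnd2 as higher in CA1, so that their start sites can be compared. RefSeq (GRCm38.p6) start-site windows were matched by symbol for 40 of the 59 described genes, 62 windows in all. Each line gives the 250 bases before a start site, 5′ to 3′ on the strand of the gene, at chr11:111065914-111066163 (+) for Kcnj2, chr2:63184288-63184537 (-) for Kcnh7 and chr6:21215096-21215345 (+) for Kcnd2. Capitals mark matches on either strand to the GC box GGGCGG, the E-box CACGTG, the cAMP response element TGACGTCA, the CCAAT box and the TATA box TATAAA, none of which overlap here.
Kcnj2: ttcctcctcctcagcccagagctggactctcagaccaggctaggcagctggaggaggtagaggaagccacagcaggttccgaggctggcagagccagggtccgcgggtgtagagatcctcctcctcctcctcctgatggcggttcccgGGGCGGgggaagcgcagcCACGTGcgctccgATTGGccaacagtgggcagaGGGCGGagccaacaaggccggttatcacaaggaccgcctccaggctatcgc
Kcnh7: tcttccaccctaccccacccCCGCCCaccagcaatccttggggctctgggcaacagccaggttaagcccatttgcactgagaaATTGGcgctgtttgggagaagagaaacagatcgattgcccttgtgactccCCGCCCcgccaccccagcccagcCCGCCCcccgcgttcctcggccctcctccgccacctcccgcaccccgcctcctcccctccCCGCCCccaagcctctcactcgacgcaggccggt
Kcnd2: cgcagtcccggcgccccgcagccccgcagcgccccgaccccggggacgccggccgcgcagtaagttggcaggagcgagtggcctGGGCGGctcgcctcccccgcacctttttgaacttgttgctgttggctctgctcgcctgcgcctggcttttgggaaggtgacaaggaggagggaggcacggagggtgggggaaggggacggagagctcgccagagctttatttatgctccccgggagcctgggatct
The motif GGGCGG was found 2 times before Kcnj2, 4 times before Kcnh7 and 1 time before Kcnd2, in windows of 65.6, 67.6 and 68.8% G and C against a median of 52.4% over all windows. It was in 46.8% of the member windows and in 32.7% of all 32851 windows. CCAAT was in 33.9 and 33.8%, TATAAA in 3.23 and 12.4%, CACGTG in 4.84 and 6.02%, and TGACGTCA in 0 and 1.55%. The 3 printed windows each hold GGGCGG. The window of Kcnc4, called higher in DG and not printed here, also held it, 1 time. Kcnab1 and Kcnab2, also called higher in CA1, had windows with it and windows without it. The sharing thus does not hold for every window of the called genes. The matches are a description of letters only.

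Other proteins of potassium channel complexes, a list of 22 genes of which 19 were tested, held no gene called for dissociation (2 positive, median -0.36), and 1 of the 22 was at 0 in every library. Against DG, 2 of the 19 were higher in CA1 and the same 2 in CA3, and none was lower. Of all genes, 1.98% were called higher in CA1 and 0.888% in CA3, and 2.07% and 0.888% lower. Cntnap2, which clusters Kv1 channels on axons, was higher by 2.87 ± 0.43 in CA1 (adjusted p = 0.000406) and 2.36 ± 0.45 in CA3 (adjusted p = 0.00676). Adam23, a receptor of the Lgi1 complex that binds Kv1 channels, was higher by 1.33 ± 0.30 (adjusted p = 0.00928) and 1.22 ± 0.31 (adjusted p = 0.045). The calls of these 2 genes were not examined in fits that left libraries out. None of the 19 was called between CA1 and CA3, against 0.115% of all genes.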

How the data were processed

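RNA sequencing of 14 libraries was analysed from the deposited tables. The submitters' processing notes name FastQC, cutadapt, kallisto and DESeq2; no version, genome build or strand is given in the sources used here. Per transcript, the tables hold the authors' estimated counts and TPM from kallisto, per the file headers. The deposited gene table holds estimated counts that lay within 0.5 of the transcript sums, so reads shared between near-identical genes were divided by kallisto. Its whole-number estimated counts entered edgeR 4.0.16 (R 4.3.3): filterByExpr on 6 groups (minimum count 10, minimum total 15), TMM scaling, and the quasi-likelihood F test in a model of region and treatment (10 residual degrees of freedom), or of group means (8) within regions and for the interaction. Benjamini-Hochberg adjustment ran over all 13063 genes, and genes under 0.05 were called. SE was derived from F. CPM were computed with the TMM-scaled totals. Deposited TPM were summed by gene to compare levels between genes. Members and lists were chosen with earlier results of these data known. Statistics are named for every called member of at least 5 CPM and for the 8 smallest p for dissociation; some members are not reported here. Levels could be given for any described member. Genes named from fits without DG control replicate 2, from fits without the 3 libraries, and from DESeq2 were chosen after their values were seen. A count of 0 allows up to 3 counts, 0.443 CPM in the deepest and 46.7 CPM in the shallowest library (counting error only, since reads carry no molecular identifiers). Gene coordinates are GENCODE M21 (GRCm38) by gene identifier, found for 59 of 59 described genes. Alternatives were RLE scaling, DESeq2 1.42.0, no filter, limma 3.58.1 on log2(TPM + 1), fewer libraries and a replicate block. The edgeR step was also run on simulated counts with large changes for dissociation, and its outcome is not reported here. No difference between regions was simulated, so that run does not bear on the region calls.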

Additional observations from a re-analysis of the deposited data

Results flagged for a closer look

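Of 18 groups of values checked over 7 control or 7 dissociated libraries, 2 held a library far from the others, its gap to the nearest being over 0.568 of the whole range; chance gives about 1 in 20. Kcnk6 was at 12.1 CPM in DG control replicate 3, above the 6 other controls (gap 0.618 of the range). The share of counts in potassium channel genes was 0.290% in DG dissociated replicate 3, the shallowest library, under the 6 other dissociated libraries (gap 0.681 of the range).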

How the results depend on the processing

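No called value, and none of the fold changes with the 8 smallest p for dissociation, changed sign under any alternative run; the dissociation value of Kcnab2 did, from -0.05 to 0.06 with RLE and 0.11 without the 3 libraries whose markers go against the label. For dissociation, 1 member was called lower and 0 higher; DESeq2 called 3 higher, and the count of lower calls was 4 with no filter, 7 with a replicate block within region, and 0 without shallow libraries, by limma on TPM, and without the 3 libraries whose markers go against the label. That last setting was chosen after seeing the data. Lower calls over all genes moved too, from 0.0459% to 0.403% with no filter and 1.26% with the replicate block, whose 7 calls include Kcns2 (-1.55), Kcnh7 (-1.67), Kcnj3 (-1.47) and Kcnab1 (-0.96). Without single libraries lower calls ran from 0 to 2 and higher calls from 0 to 1. For CA1 against DG, 5 higher became 10 with no filter, 8 without shallow libraries, 8 with controls only and 1 by limma (2 to 8 without single libraries), and 4 lower became 2 by limma and 2 with controls only (2 to 4). For CA3 against DG, 2 higher became 1 with RLE, 7 with no filter, 1 with controls only, and 0 by limma and without the 3 libraries (0 to 6), and 3 lower became 5 by DESeq2, 6 with no filter, 0 by limma and 1 with controls only (1 to 4). For CA1 against CA3, 0 higher became 1 by DESeq2, 1 with no filter and 3 without the 3 libraries, and 0 lower became 1 by DESeq2 and 1 without shallow libraries. Within CA1, 0 became 2 by DESeq2 and 5 with no filter (0 to 2), and within DG 1 with no filter. With no filter, calls over all genes were 5.18% for CA1 against DG, 3.54% for CA3 against DG, 0.73% for CA1 against CA3, 1.56% within CA1 and 1.5% within DG; by limma they were 1.26%, 0.13% and 0% for the region comparisons, with controls only 6.22%, 1.07% and 0.0651%, and without shallow libraries 5.82%, 2.66% and 0.516%. The cause was not tested. Correlations of the deviations of same-numbered samples were -0.0277 to 0.0194 in CA1, 0.0673 in CA3 and -0.164 in DG. In a group of 2 libraries the deviations from the mean mirror each other, and shallow libraries add counting error. These correlations therefore cannot decide whether the numbers pair the samples. Where a group was left with 1 library, that library is assumed to vary like the other groups. Depth limits the shallow libraries: 18 of the 59 described genes were at 0 in the shallowest.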
